A study of Mus musculus with 2 samples.

Results

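Natural killer (NK) cells of the mouse heart after transverse aortic constriction (TAC) were examined across all genes and set against the T cells of the same library. Members were chosen by raw unique molecular identifier (UMI) counts per barcode. Each had at least 2 UMIs summed over the receptors Ncr1, Klrb1c, Klre1 and Klra8 and fewer than 2 over Cd3e, Cd3d and Cd3g, and it had no UMI of Cd8b1, Cd79a, Csf1r, Pdgfra or Cdh5. This gave 85 of 9369 barcodes, or 0.907% (95% Clopper-Pearson interval 0.725 to 1.12, which covers counting error only). The members held 343752 UMIs in all, with 2595 to 13161 UMIs per cell and a median of 3432.

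The single library pooled non-cardiomyocytes from 7 mice, of which 3 were controls and 4 were described as Nts (neurotensin) knockouts, and all had undergone TAC 7 days earlier. TAC narrows the aorta by surgery and loads the left ventricle with pressure. The genotype label reads WT at an age of 6 to 8 weeks, although the pool is described as holding both genotypes. Live single cells of the hashtag-labelled hearts were sorted together before droplet capture, and the hashtag library that could tie a cell to a mouse was not analysed here. No comparison of control with knockout mice was therefore made, each class of cells below is 1 sample with no replicate, and no test was run. The labels give no sham-operated group, strain, sex or Cre driver for these animals.

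NK cells are innate lymphocytes that kill stressed, infected or transformed cells without a rearranged antigen receptor. They release perforin and granzymes from stored granules when signals from activating receptors outweigh those from inhibitory receptors for MHC class I, and they secrete interferon-gamma and chemokines. Mouse NK cells mature from a Cd27-positive to an Itgam-positive (CD11b) stage under the T-box factors Eomes and Tbx21, and RUNX factors also act in the lineage.

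The promoters of 4 genes on which the account turns are shown for a reader who wants to follow their regulation: the granule proteases Gzma and Gzmb, the pore-forming Prf1, and the activating receptor Ncr1 that the selection used. Each runs from 250 bases before to 50 after the annotated start, 5′ to 3′ on the gene's strand, in the RefSeq table for GRCm38.p6. Capitals mark a RUNX motif (TGTGGT, or ACCACA on the other strand). A T-box core (GGTGTG, or CACACC) was also searched on both strands and is in none of the 4. They lie at chr13:113100932-113101231 (minus strand) for Gzma, chr14:56262285-56262584 (minus) for Gzmb, chr10:61297586-61297885 (plus) for Prf1 and chr7:4337465-4337764 (plus) for Ncr1.
Gzma: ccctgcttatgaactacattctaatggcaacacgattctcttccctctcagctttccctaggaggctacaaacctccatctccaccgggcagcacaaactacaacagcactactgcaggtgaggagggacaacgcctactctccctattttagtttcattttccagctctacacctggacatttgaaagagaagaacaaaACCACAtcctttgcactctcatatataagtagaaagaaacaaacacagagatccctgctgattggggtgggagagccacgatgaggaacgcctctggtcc
Gzmb: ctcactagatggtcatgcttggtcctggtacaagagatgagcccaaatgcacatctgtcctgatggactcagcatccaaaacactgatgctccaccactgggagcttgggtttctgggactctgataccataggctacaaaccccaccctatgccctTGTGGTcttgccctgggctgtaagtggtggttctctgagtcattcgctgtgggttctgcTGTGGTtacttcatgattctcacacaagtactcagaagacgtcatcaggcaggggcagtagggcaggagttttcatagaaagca
Prf1: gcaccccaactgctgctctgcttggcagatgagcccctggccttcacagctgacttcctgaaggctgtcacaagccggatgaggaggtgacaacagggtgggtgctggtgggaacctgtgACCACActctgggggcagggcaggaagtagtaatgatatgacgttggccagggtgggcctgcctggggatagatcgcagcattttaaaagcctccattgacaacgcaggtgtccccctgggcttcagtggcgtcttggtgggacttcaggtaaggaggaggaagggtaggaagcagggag
Ncr1: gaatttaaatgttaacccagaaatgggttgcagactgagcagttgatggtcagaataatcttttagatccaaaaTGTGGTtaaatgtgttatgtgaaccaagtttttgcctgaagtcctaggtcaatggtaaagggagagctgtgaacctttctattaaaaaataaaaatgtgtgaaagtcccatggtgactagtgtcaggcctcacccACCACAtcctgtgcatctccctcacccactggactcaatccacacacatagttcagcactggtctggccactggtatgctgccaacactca

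The RUNX letters were found 50 bases before the start of Gzma, 93 and 34 bases before that of Gzmb, 130 bases before that of Prf1, and 176 and 41 bases before that of Ncr1. They stood in 17.6% of the 448 promoters of genes higher in NK cells, 13.5% of the 1056 of genes higher in T cells, 11.9% of the 6408 of genes in neither group, and 16.8% of all 32851 promoters of this length. For the T-box core the shares were 17.6%, 18.1%, 17.0% and 19%. A match is a description of these letters and not a binding site.

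The label was checked against 6 markers: Ncr1, Klrb1c and Klre1, which the selection used, and Gzma, Prf1 and Eomes, which it did not. All 6 were detected in the members. Receptor UMIs per member ranged from 2 to 29 with a median of 9, Klre1 was seen in 83 cells, Klrb1c in 71, Ncr1 in 66 and Klra8 in 37, and no member rested on a single receptor. All of Gzma, Prf1 and Eomes had a UMI in 49 members, 2 of them in 25, 1 in 7 and none in 4. The selection reads the same cells, so these values describe the members and support nothing.

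At the edge of the selection, 2 members had exactly 2 receptor UMIs. Just outside it, 20 barcodes met every other condition with 1 receptor UMI. The 20 had 1 UMI of Gzma (5.42 CPM, the class's UMIs of a gene per 1e+06 UMIs of the class) and none of Prf1 or Eomes, and fibroblast collagen Col1a1 stood at 1138 CPM. The 2 members just inside had Gzma at 3488 CPM and Prf1 at 1059 CPM, each from 1 of the 2 cells. These 2 members also had Col1a1 at 934 CPM, from 1 cell, and no Eomes UMI. Their signalling adaptor Tyrobp was at 187 CPM, against 894 CPM in the 20 outside. The 67 members with at least 6 receptor UMIs had Gzma and Prf1 at 10682 and 852 CPM and Col1a1 at 40.9 CPM. Of 180 barcodes with at least 2 receptor UMIs, 53 carried at least 2 Cd3 UMIs, and then 1, 6, 21, 12 and 2 were left out for Cd8b1, Cd79a, Csf1r, Pdgfra and Cdh5.

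T cells for comparison were the 325 barcodes with at least 2 Cd3 UMIs, fewer than 2 receptor UMIs and none of Cd79a, Csf1r, Pdgfra or Cdh5, with a median of 3482 UMIs. They were divided into 180 with Cd8a or Cd8b1 (CD8 T cells) and 145 without. A further 40 barcodes had at least 2 UMIs of both Cd3 and the receptors, and these T cells with NK receptors are shown beside the members. Markers of other cell types were not absent from either class. At least 20 UMIs of fibroblast, mural, endothelial, macrophage, neutrophil, dendritic or B cell markers were in 7 of 85 NK cells (8.24%) and 51 of 325 T cells (15.7%). In the NK cells 9 of 10 fibroblast markers were detected at a summed 5347 CPM, 82.4% of it in 3 cells, against 9024 CPM in T cells. Macrophage markers summed to 646 against 1913 CPM and neutrophil markers to 1513 against 1443 CPM, with 95.8% of the NK value in 3 cells. Mural markers summed to 337 against 104 CPM, with 96.6% of the NK value in 3 cells, dendritic markers to 212 against 610 CPM, B cell markers to 221 against 307 CPM and endothelial markers to 90.2 against 106 CPM. No UMI of Kdr, Cd79b, Ms4a1, Flt3, Xcr1, Ly6g or Fcgr1, nor of any Schwann or erythroid marker, was in NK cells. The part of these transcripts in the differences was tested only by leaving such barcodes out. Scrublet called 2 NK cells and 10 T cells doublets, and these were kept.

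Among 7933 genes with at least 20 UMIs over both classes, 456 (5.75%) were at least 2-fold higher in NK cells and 1128 (14.2%) at least 2-fold higher in T cells, with a median log2 ratio of -0.09. T cells held 1408418 UMIs and NK cells 343752, so a gene seen only in T cells passed this limit at a lower CPM. The 2 shares are therefore not alike in reach, and they are the background for each list count below. With intervals that also had to leave out 1, 379 and 552 genes were counted. A gene seen almost only in 1 class passed through that class, so its side was fixed. The cytolytic machinery, the Klr receptors, a set of secreted chemokines and the factors Irf8 and Eomes stood on the NK side. T cell receptor components, Il7r, Ccr7 and mitotic genes stood on the T side. The selection divided the classes on genes of these same programmes, so the counts describe the difference between the classes chosen and are not evidence for it. Ratios below carry 95% exact intervals for counting error only, and a class at 0 was set to 3 counts.

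**Figure D1:**
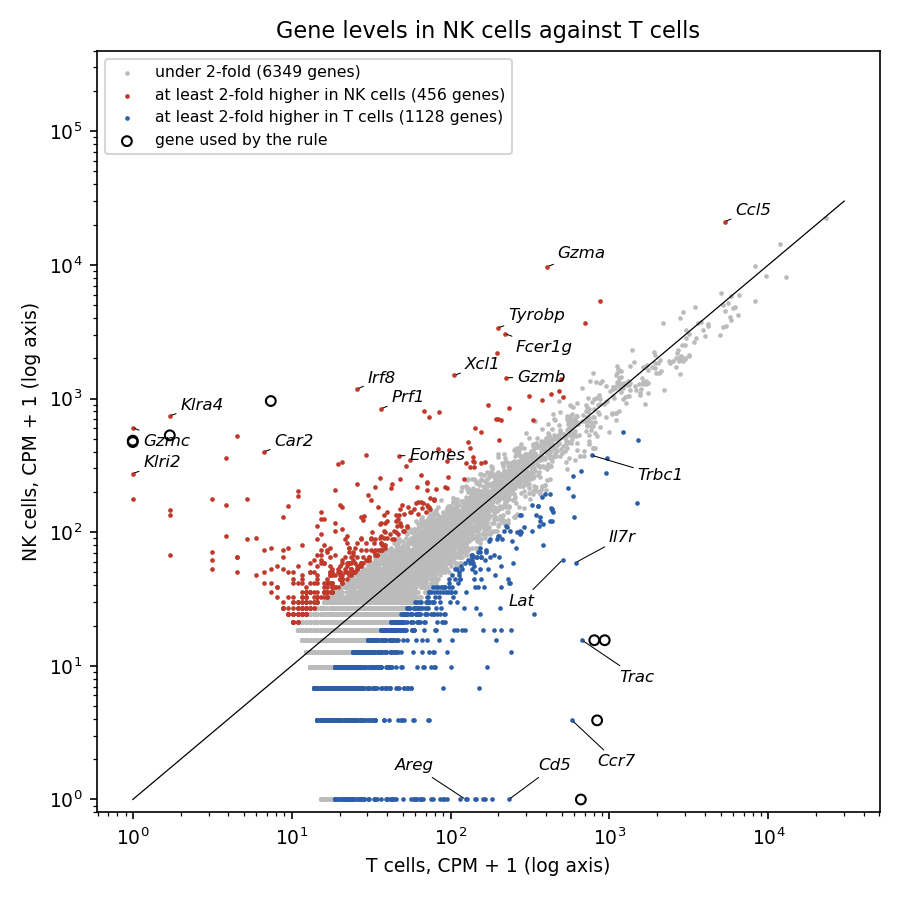
Level of each of 7933 genes in T cells (x axis, CPM + 1, log scale) against NK cells (y axis, CPM + 1, log scale), with 1 point per gene, the line of equality, and open circles for genes the selection used. Of the named genes, Gzma, Tyrobp, Irf8 and Prf1 lie far above the line and Ccr7, Trac and Cd5 far below it.

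Genes of the killing machinery were mostly on the NK side. Of 17 compared genes of the cytotoxic granule list, 10 were at least 2-fold higher in NK cells and 1 in T cells, against 5.75% and 14.2% of all genes, and the list's median log2 ratio was 1.67. Gzma, the tryptase of the granule, had a median of 36 UMIs per NK cell (0 to 150) and was detected in 76 of 85. Its level was 9702 CPM in NK cells and 405 CPM in T cells, 24.0-fold higher (21.9 to 26.2). Gzma was at 8549 CPM in T cells with NK receptors, 689 CPM in CD8 T cells and 79.1 CPM in T cells without CD8.

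Prf1, which opens the target membrane to granzymes, had 0 to 17 UMIs per cell with a median of 3, in 73 cells. It stood at 838 CPM against 35.5 CPM in T cells, 23.6-fold higher (17.4 to 32.5). In the T cells with NK receptors it was at 295 CPM (222 to 385), below the NK interval of 744 to 940 CPM, whereas Gzmb there was at 1957 CPM and at 1431 CPM in NK cells. Relative to NK cells, the T cells with NK receptors thus had slightly less Gzma, more Gzmb and less Prf1. Gzmb, the protease that starts caspase-driven death, was 6.40-fold higher in NK cells than in T cells (5.54 to 7.40), and its neighbours in the granzyme cluster are similar enough that counting may divide their reads.

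After thinning every barcode to 2500 UMIs, a Gzma UMI was found in 88.2% of NK cells, 8.31% of T cells, and 0.813% to 4.73% of cells with Csf1r, Pdgfra, Cdh5 or Cd79a, which should lack the gene and had median depths of 3631 to 8059.5 UMIs. Without thinning the share was 89.4% of NK cells and 9.54% of T cells. Prf1 was in 77.6% of thinned NK cells, 9.23% of T cells and at most 2.96% of those other classes. Both shares in NK cells lay above those in all 4 of these classes.

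The serpins Serpinb9 and Serpinb6b, inhibitors that guard killer cells against their own proteases, were 9.41-fold (7.55 to 11.8) and 11.9-fold (9.43 to 15.2) higher in NK cells. Nkg7, a granule membrane protein, was detected in all 85 members at 2 to 59 UMIs per cell and was 5.21-fold higher (4.79 to 5.66). Fasl, the ligand of the death receptor Fas, was 5.28-fold higher (3.78 to 7.39). The single T-side granule gene was Gzmm, with 2 UMIs in NK cells and 56 in T cells, 6.83-fold higher in T cells (1.81 to 57.8). Gzmk, a granzyme of memory T cells, was at 29.1 CPM in NK cells and 350 CPM in the T cells with NK receptors. The machinery that docks and fuses granules differed less: 2 of 14 genes, Unc13d (2.19-fold, 1.09 to 4.25) and Stxbp2 (2.32-fold, 1.20 to 4.35), were higher in NK cells. That was 14.3% against 5.75% of all genes, and the list median was 0.30. Of 4 death ligand genes, Fasl was on the NK side and Tnf and Ltb on the T side, or 25% and 50% against 5.75% and 14.2% of all genes.

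Gzmc, a further granzyme, rested on few cells. It had 208 UMIs in 5 NK cells and none in T cells, at least 284-fold higher, but 201 of them (96.6%) came from 1 cell. T cells with NK receptors, which are not in that comparison, held 198 UMIs in 2 cells (1082 CPM, against 605 CPM in NK cells). Without the highest NK cell the ratio to T cells was at least 9.56-fold. That cell held 162 UMIs of Xcl1, 120 of Ccl4, 30 of Ccl1 and 24 of Ccl3, each the highest among the 85, and no Gzma or Eomes UMI. It had 5021 UMIs, no doublet call and 5 UMIs of other-lineage markers.

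**Figure D2:**
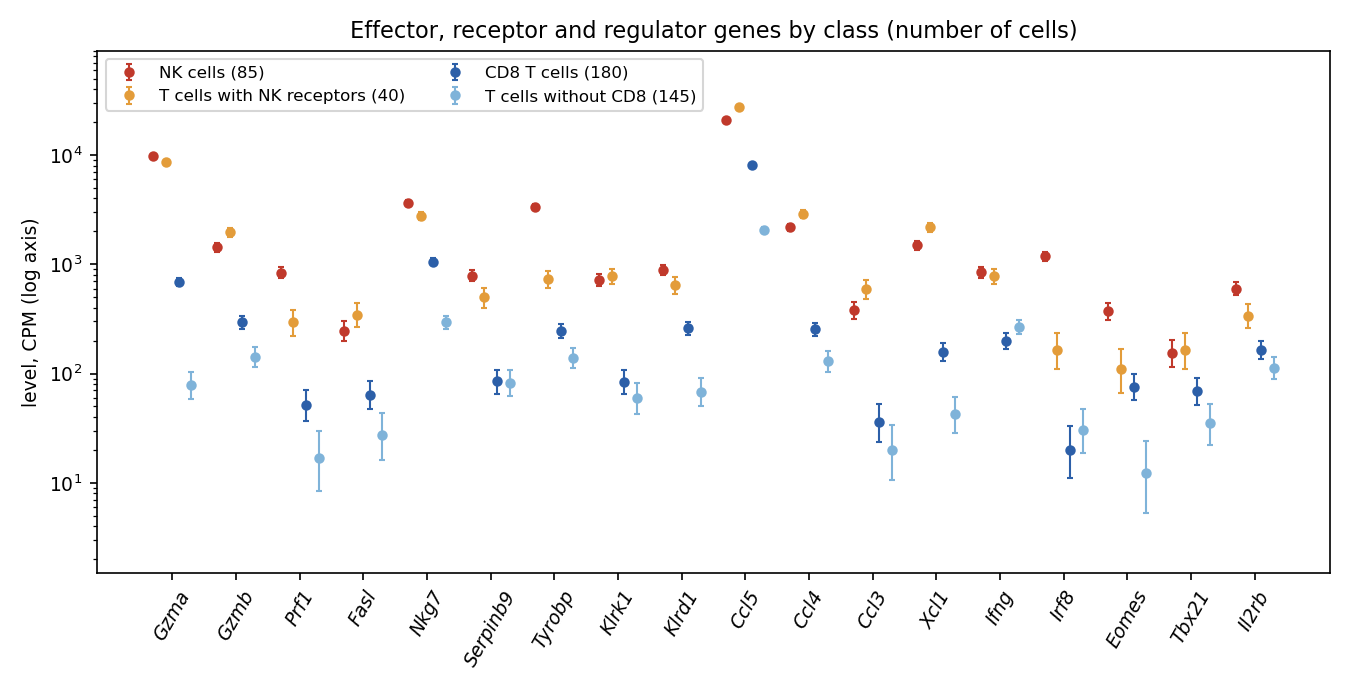
Levels of 18 effector, receptor and regulator genes in 4 lymphocyte classes (y axis, CPM, log scale); points are class values and bars their 95% exact Poisson intervals, which cover counting error only. NK cells and T cells with NK receptors lie close for Gzma, Klrk1 and Ifng, and apart for Prf1, Tyrobp, Irf8 and Eomes.

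Receptors gave the lists with the largest share on the NK side. Of 19 inhibitory receptors 11 had enough UMIs, and of these 10 (90.9%, against 5.75% of all genes) were higher in NK cells and none in T cells (median log2 ratio 4.13, against -0.09 over all genes). Klra1, Klra7, Klra9, Klrb1b and Klri2 among them had enough UMIs only through the NK class, so they could not have fallen on the T side. The count is therefore a description only. Of 15 activating receptors 11 were higher in NK cells and 2, Slamf6 and Cd69, in T cells (median 1.71). These were 73.3% and 13.3%, against 5.75% and 14.2% of all genes. Klra4, Cd244a and Klrb1a among the 11 also passed only through the NK class, so this count too is a description only. Klrk1 (NKG2D), the activating receptor for stress-induced ligands, was 10.0-fold higher (7.91 to 12.7) and was found in 76 members. Klrd1 (CD94), the partner chain of the NKG2 receptors, was 5.21-fold higher (4.38 to 6.19), its activating partner Klrc2 16.7-fold (11 to 26.2) and its inhibitory partner Klrc1 6.59-fold (4.50 to 9.74). In T cells with NK receptors, Klrk1 was at 776 CPM and Klrc1 at 328 CPM, against 724 and 215 CPM in NK cells.

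The Klra (Ly49) genes, lectin-like receptors for MHC class I that are switched on in only part of the NK cells, were scarce in T cells. Klra4 had 255 UMIs in 41 NK cells and 1 UMI in T cells, a ratio of 1045 whose interval runs from 186 to 41426. Klra7 (180 against 5 UMIs), Klra9 (122 against 4), Klra3 (111 against 26) and Klra1 (50 against 1) lay the same way. Reads from these near-identical neighbours can be divided differently by a counting method, so the value of any single Klra gene is uncertain.

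Members differed from cell to cell in which Klra genes they showed. Of 7 Klra genes counted, 9 members had none, 14 had 1, 20 had 2, 21 had 3, 15 had 4 and 6 had 5. The median member carried 9 UMIs over the 7 genes, and the highest 37. Klra4 was detected in 25 of the 37 members with Klra8, an activating family member, and in 16 of the 48 without. Klra9 was detected in 21 of the 45 members with Klra7 and 20 of the 40 without. A UMI count of 0 at this depth does not show that a gene was off.

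The genes of many of these receptors lie side by side on chromosome 6. Between Klrb1a and Klra1 (chr6:128609227-130386874, GENCODE M21 on GRCm38) there were 39 coding genes that the selection did not use, of which 17 had enough UMIs. Of the 17, 13 were higher in NK cells, Cd69 was higher in T cells, and Clec2i, Clec2d and Gabarapl1 were in neither group. In the granzyme and chymase cluster on chromosome 14 (chr14:55941451-56262260) 3 of 15 coding genes were compared, and all 3, Cma1, Gzmc and Gzmb, were higher in NK cells. Genes scarce in T cells, such as Cma1, Gzmc and several Klra genes, were compared only through their NK counts. The counts for both clusters are therefore descriptions, beside shares of 5.75% (NK side) and 14.2% (T side) over all genes. Cma1, a chymase, was at 177 CPM in 31 members and had 3 UMIs in all T cells, a ratio of 83.3 (27.2 to 415).

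The wiring behind the receptors differed by chain. Tyrobp (DAP12) and Fcer1g, signalling adaptors for activating receptors, were detected in every member, at 1 to 40 and 4 to 35 UMIs per cell. Tyrobp was 17.2-fold (15.1 to 19.6) and Fcer1g 14-fold (12.3 to 15.9) higher than in T cells. The kinase Syk, which these adaptors recruit, was 9.37-fold higher (3.65 to 26.9) and the adaptor Lat2 18.7-fold (10.4 to 36.2). Lat, the scaffold of T cell receptor signalling, went the other way at 61.1 against 506 CPM, 8.28-fold higher in T cells (5.37 to 13.5). The kinases Lck and Zap70 and the zeta chain Cd247, used by both cell types, stood at ratios of 0.955, 1.31 and 0.830, each interval including 1. Over the list 7 of 21 genes were higher in NK cells and 4 in T cells.

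Tyrobp and Fcer1g are also macrophage genes: 99.3% and 99.5% of thinned cells with Csf1r had a UMI, as did 7.71% and 9.15% of cells with Pdgfra, against 97.6% for both in NK cells. The macrophage markers C1qa, C1qb, C1qc, Cd68, Adgre1 and others summed to 0 to 47 UMIs per NK cell with a median of 1, after a selection that left out barcodes with Csf1r. Their part in the 2 adaptors' levels was tested only by leaving out barcodes with at least 20 other-lineage UMIs. Over all alternatives given at the end, the ratio to T cells ran from 11.7 to 64.4 for Tyrobp and from 7.76 to 37.8 for Fcer1g.

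T cell identity genes were on the T side in 19 of 20 cases (95%, against 14.2% of all genes), with a median log2 ratio of -2.73. Cd5 and Cd6, which tune T cell receptor signals, and the thymocyte factor Themis had no UMI in NK cells, at least 26.5-fold, 18.2-fold and 8.71-fold lower than in T cells. Trac, the constant region of the receptor alpha chain, had 5 UMIs in 5 members against 946 UMIs in T cells, and 11 members held a single Cd3 UMI. Trbc1, a constant region of the beta chain, was among the 19 by level, yet it was seen in most members. It had 129 UMIs in 63 of 85 members (375 CPM, against 771 CPM in T cells), and after thinning it was in 58.8% of NK cells, 47.1% of T cells and at most 0.578% of cells with Csf1r, Pdgfra, Cdh5 or Cd79a. Trbc2 was at 163 against 1499 CPM. The thinned Trbc1 intervals, 47.6 to 69.4% in NK cells and 41.5 to 52.7% in T cells, overlap, while Trac was seen in 5 members only. Cd28, a costimulatory receptor of T cells, was also seen in 32 members, at 183 against 374 CPM.

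Chemokines differed widely in level and in spread among cells. The list summed to 25806 CPM in NK cells and 6811 CPM in T cells. Ccl5, which draws T cells and monocytes, was found in 84 of 85 members at a median of 75 UMIs per cell and at most 367, and was 3.97-fold higher than in T cells (3.85 to 4.10). It was at 27768 CPM in the T cells with NK receptors and 8143 CPM in CD8 T cells, so the NK value of 21088 CPM lay between these classes. A Ccl5 UMI was in 98.8% of thinned NK cells against 5.08% of cells with Pdgfra (15.5% without thinning).

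Ccl3 and Ccl4, which draw monocytes and lymphocytes, were 13.3-fold (9.28 to 19.5) and 11.1-fold (9.65 to 12.8) higher in NK cells. Xcl1, which draws cross-presenting dendritic cells, was 14.2-fold higher (11.8 to 17.2), and 9.73-fold without its highest NK cell. In T cells 48.3% of its UMIs came from 1 cell. Unlike Ccl5 these were uneven from cell to cell: Xcl1 was seen in 48 members at a median of 1 UMI and at most 162, and Ccl3 in 35. Ccl1 had 44 UMIs in 2 members only, 16.4-fold higher than in T cells (8.33 to 35.2) and 5.21-fold without the higher of the 2. How reads matching more than 1 chemokine gene were counted is not given in the sources used here.

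On the T side stood Ccl6, Ccl7, Ccl9, Cxcl2 and Cxcl12, chemokines also made by myeloid and stromal cells, so that 5 of 15 were counted on each side and the list median was -0.40. Each side's share was 33.3%, against 5.75% (NK side) and 14.2% (T side) of all genes. In T cells 67.9% of the Ccl6 and 47.1% of the Ccl7 UMIs came from 1 cell. When barcodes with at least 20 other-lineage UMIs were left out of both classes, an alternative chosen after seeing the data, 5 of 11 chemokines were higher in NK cells and 0 in T cells, and the median was 0.87. Ccl3 and Ccl4 are also macrophage genes, in 34.4% and 43.5% of thinned cells with Csf1r against 34.1% and 61.2% of NK cells. Ccl5 and Xcl1 UMIs were in 7.81% and 0.163% of those Csf1r cells.

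Receptors for tissue entry and exit were divided, with 5 of 15 higher in NK cells and 6 in T cells, or 33.3% and 40% against 5.75% and 14.2% of all genes. Ccr2 (2.64-fold, 2.09 to 3.32), a receptor of inflammatory monocytes and lymphocytes, and S1pr5 (12.8-fold, 5.60 to 32.8), the lysolipid receptor by which NK cells leave marrow and nodes, were higher in NK cells. Ccr7, the receptor that guides cells into lymph nodes, had 1 UMI in NK cells and 818 in T cells, a T-side ratio of 200 with an interval of 35.7 to 7895. Gpr183 (13.3-fold, 5.62 to 41.2), Cxcr6 (5.74-fold, 3.37 to 10.6), S1pr1 (2.59-fold, 1.60 to 4.46) and Cxcr3 (2.42-fold, 1.37 to 4.67) were also higher in T cells. Of the integrins, Itgax (18.1-fold, 7.84 to 48.8), Itga2 (CD49b, 11.8-fold, 5.37 to 28.7) and Itgam (5.74-fold, 3.34 to 10) were higher in NK cells and Itgb7 in T cells (2.57-fold, 1.90 to 3.56). Over the integrin and adhesion list 5 of 20 were on the NK side and 2 on the T side, or 25% and 10% against 5.75% and 14.2% of all genes.

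Among secreted cytokines Ifng, which activates macrophages, was at 847 CPM in NK cells and 231 CPM in T cells, 3.67-fold higher (3.12 to 4.31). With cells that had at least 2 cell cycle UMIs left out, which leaves 12 NK and 66 T cells, the ratio was 1.08. It was detected in 48 members with a median of 1 UMI and at most 62. In T cells with NK receptors it was at 776 CPM (654 to 915), which overlaps the NK interval of 752 to 950. Vegfa (3.90-fold, 2.01 to 7.56) and Pdgfb (5.33-fold, 2.16 to 13.6), growth factors for endothelial and mural cells, were higher in NK cells on 20 and 13 UMIs. Il17a and Areg, cytokines of T cells and of other innate lymphocytes, had no UMI in NK cells and were at least 10.7-fold and 14.2-fold lower. Tnf had 1 UMI, 19.5-fold higher in T cells (3.41 to 781). Of 12 effector cytokines and growth factors, 4 (33.3%) were on each side, against 5.75% (NK side) and 14.2% (T side) of all genes.

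The cytokine receptors were divided, in some cases between chains of the same receptor. Il2rb, the chain that NK cells need for interleukin-15, was 4.26-fold higher (3.49 to 5.21), Il12rb2 8.19-fold (3.50 to 20.7) and Il18rap 5.62-fold (3.73 to 8.53), the last 2 being parts of the receptors for interferon-gamma-inducing cytokines. Il12rb1, the chain that pairs with Il12rb2, had 3 UMIs in NK cells and was at least 2-fold higher in T cells. Il18r1, which pairs with Il18rap, was in neither group. Il7r, the survival receptor of resting T cells, was 10.5-fold higher in T cells (6.75 to 17.3), and Il21r 6.50-fold (3.24 to 15.2). The chains of the interferon-gamma receptor parted: Ifngr1 was 1.97-fold higher in NK cells (1.77 to 2.19), while Ifngr2 had 1 UMI in NK cells and 100 in T cells, 24.4-fold higher in T cells (4.28 to 974). Over the list 4 of 22 genes were higher in NK cells and 9 in T cells, or 18.2% and 40.9% against 5.75% and 14.2% of all genes.

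Irf8, which acts in myeloid, B and NK cells, had the largest ratio of the transcription factor list. It had 0 to 22 UMIs per cell with a median of 4 and was found in 77 members, at 1178 CPM against 24.9 CPM in T cells, 47.4-fold higher (33.5 to 69.0). CD8 T cells had 20 CPM and T cells with NK receptors 164 CPM, both below the NK interval of 1066 to 1299 CPM. Irf8 is also expressed by B cells and myeloid cells, and after thinning it was in 83.5% of NK cells, 31.4% of cells with Cd79a and 29.0% of cells with Csf1r.

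Eomes was at 372 CPM in 55 members, 8.07-fold higher than in T cells (5.94 to 11), and Tbx21 (T-bet) at 154 CPM was 2.90-fold higher (2.00 to 4.17). In T cells with NK receptors Eomes was at 109 CPM (66.8 to 169) and Tbx21 at 164 CPM (111 to 234), so those cells overlapped NK cells in Tbx21 and not in Eomes. Id2 (2.61-fold, 2.27 to 2.99), Nfil3 (2.67-fold, 2.02 to 3.52) and Zeb2 (2.27-fold, 1.63 to 3.13), which act in NK development and late maturation, were also higher. Bcl11b, which upholds T cell fate, had 4 UMIs and was 20.7-fold higher in T cells (8.00 to 76.4), and Rora was 5.27-fold higher there (3.15 to 9.53). Over the list 9 of 30 genes were higher in NK cells and 2 in T cells, or 30% and 6.67% against 5.75% and 14.2% of all genes. Car2, a carbonic anhydrase and no member of a list, was among the 10 largest ratios over all genes, at 399 CPM in NK cells and 70.2-fold higher (34.6 to 166).

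**Figure D3:**
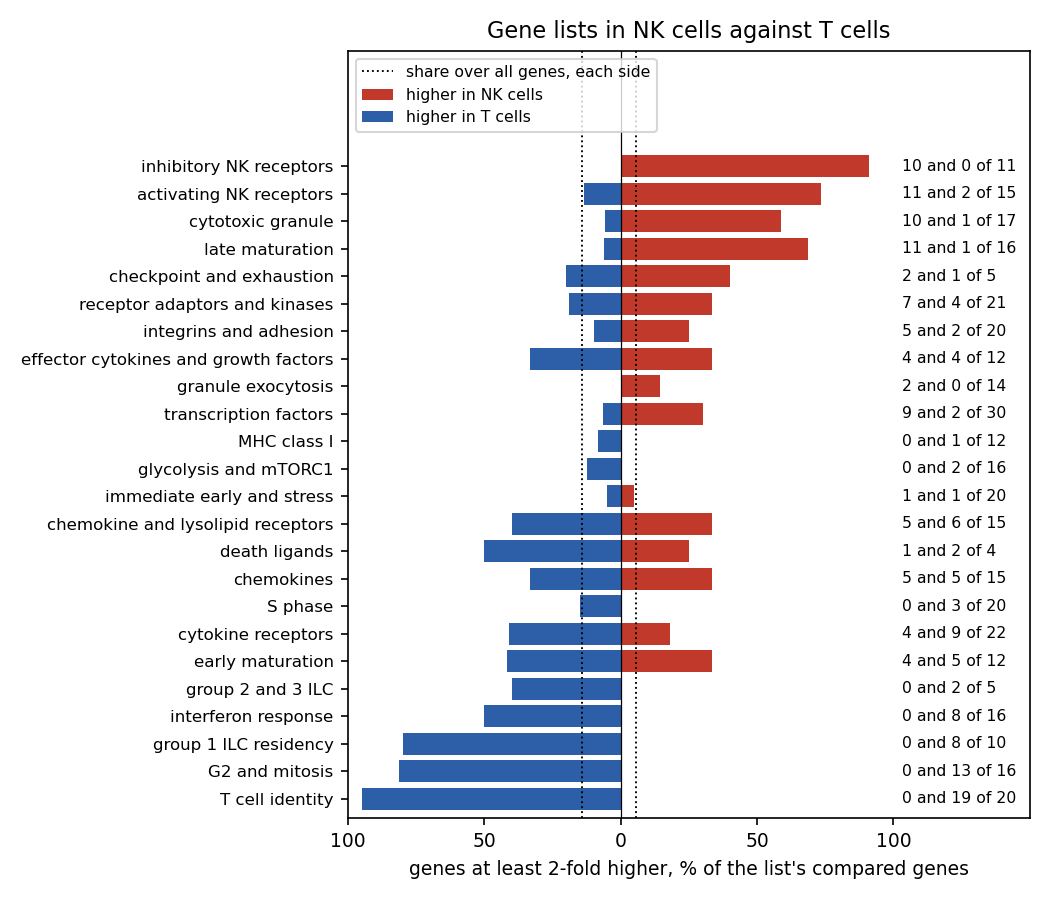
Share of each of 24 gene lists that was at least 2-fold higher in NK cells (right) or in T cells (left), as a percentage of the list's compared genes, with the counts at the right edge (NK, then T, of compared) and dotted lines at the shares over all genes, 5.75% and 14.2%. Lists are ordered by median log2 ratio, from inhibitory NK receptors (10 and 0 of 11) at the top to T cell identity (0 and 19 of 20) at the bottom.

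Against CD8 T cells, 484 of 6192 genes (7.82%) were at least 2-fold higher in NK cells and 567 (9.16%) in CD8 T cells. T cells with NK receptors lay closer to NK cells than CD8 T cells did in Gzma and Ccl5, and no gene counts were made against them. Against T cells without CD8 the counts were 383 (6.11%) and 915 (14.6%) of 6272. The cytotoxic granule list gave 9 of 17 on the NK side against CD8 T cells and 10 of 15 against T cells without CD8, and the inhibitory receptors 10 of 11 in both. Gzma was 14.1-fold (12.8 to 15.5) and 123-fold (93.3 to 165) higher in NK cells than in the 2 T classes. Both comparisons use the same NK cells. Checkpoint and exhaustion genes, which mark chronically stimulated T cells, had 2 of 5 higher in NK cells than in all T cells, Tox and Entpd1, and 1 in T cells, Ctla4. The shares over all genes in that comparison were 5.75% and 14.2%.

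Maturation stages were read from Cd27 and Itgam. Of 85 members 20 had Cd27 UMIs only (23.5%, 15.0 to 34.0), 11 both, 16 Itgam only (18.8%, 11.2 to 28.8) and 38 neither. Late maturation genes were on the NK side of the comparison with T cells in 11 of 16 cases (median 1.58), and early maturation genes in 4 of 12, with 5 on the T side (median -0.57). Over all genes 5.75% were on the NK side and 14.2% on the T side. The 4 were Xcl1, Cd7, Ctla2a and Itga2, and the 5 were Il7r, Cxcr3, Ltb, Tcf7 and Thy1, genes that T cells also use. Klrg1, a late receptor, was 3.62-fold higher in NK cells (2.38 to 5.50), and Ly6c2, also a late gene, was 3.16-fold higher in T cells (2.35 to 4.33).

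Between the stages, some effector genes were higher in the Itgam-only cells and others were not. Prf1 was at 473 CPM in Cd27-only and 1297 CPM in Itgam-only cells, 2.74-fold higher in the latter (1.87 to 4.07). Ccl5 was at 14766 and 30667 CPM (2.08-fold, 1.94 to 2.23), Cma1 at 66.0 and 345 CPM (5.22-fold, 2.04 to 15.8), and Klrg1 at 55.0 and 213 CPM (3.88-fold, 1.30 to 13.9). Gzma, Gzmb and Irf8 were 1.54-fold, 1.62-fold and 1.85-fold higher in Itgam-only cells.

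Other genes ran the other way or stayed level. Xcl1 was at 1342 CPM in Cd27-only and 230 CPM in Itgam-only cells, 5.84-fold higher in the former (3.35 to 11), and it was at 2395 CPM in cells with neither, or 1345 CPM (1161 to 1549) without the cell highest in Gzmc. Ltb, a lymphotoxin chain, had 19 UMIs against 1, a ratio of 12.7 (2.02 to 529), and Emb, a surface glycoprotein, was 1.95-fold higher (1.20 to 3.29). Ifng was 1.72-fold higher in Cd27-only cells (1.20 to 2.52). Nkg7 had a ratio of 0.985 (0.839 to 1.16) and Eomes 0.858 (0.493 to 1.51). A UMI count of 0 for Cd27 or Itgam is not absence, the stages hold 11 to 38 cells each, and Itgam is also a myeloid gene, in 27.3% of thinned cells with Csf1r against 22.4% of NK cells.

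**Figure D4:**
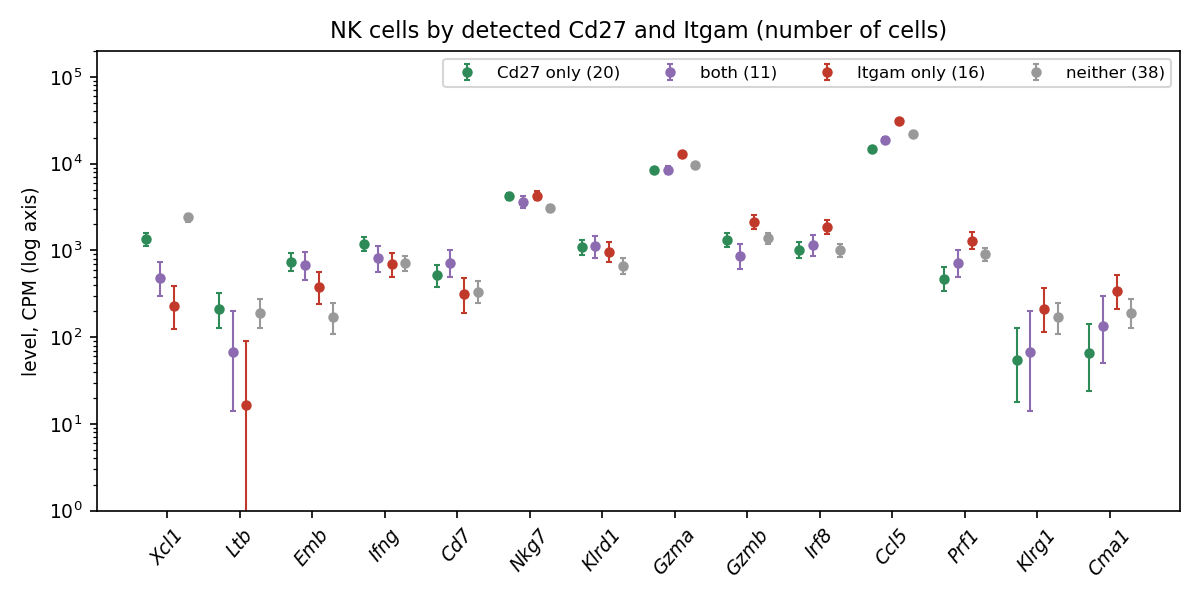
Levels of 14 genes in NK cells divided by detected UMIs of Cd27 and Itgam (y axis, CPM, log scale; number of cells in the legend); points are class values and bars 95% exact Poisson intervals for counting error only. Xcl1 and Ltb are highest in cells without Itgam, and Ccl5, Prf1 and Cma1 in the 16 Itgam-only cells. The lower bar of Ltb in Itgam-only cells runs off the axis.

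A small group stood apart within the members. Residency genes of group 1 innate lymphoid cells (ILC) were on the T side in 8 of 10 cases (80%, against 14.2% of all genes) and on the NK side in none. None of the 13 genes of the group 2 and 3 ILC list had a UMI in NK cells, and 2 of the 5 compared (40%) were on the T side. Yet 10 members had a UMI of Il7r or Cxcr6, a division chosen after the values were seen. Eomes was at 25.5 CPM (0.645 to 142) in the 10 and 417 CPM (348 to 496) in the other 75. Klra4, Klra7 and Klra8 had no UMI in the 10, which allows up to 94.0 CPM by the interval, and were at 837, 591 and 532 CPM in the 75. Itga2 also had no UMI in the 10, but its 85.4 CPM in the 75 lies below that limit, so no difference can be read from it. Klra8 was used by the selection, so its values are a description only. Not every Klra gene was at 0 there: Klra3 was at 382 CPM in the 10 and 315 CPM in the 75, and Klra9 at 178 and 378 CPM, with 3 of the 10 cells carrying each.

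Genes higher in the 10 were Tmem176b (713 against 23 CPM), Pdcd1 (331 against 9.85 CPM), Itga1 (76.4 against 6.57 CPM, on 3 and 2 UMIs) and Xcl1 (8227 against 617 CPM). Tmem176b was seen in 5 of the 10 cells and 4 of the 75, and Pdcd1 in 4 of the 10 and 1 of the 75. Of the 13 Pdcd1 UMIs in the 10, 3 came from the cell with most Gzmc. Gzma was at 3158 CPM in the 10 and 10545 CPM in the 75. The cell with most Gzmc was among the 10; without it Xcl1 was at 4702 CPM (4004 to 5487) in the other 9, with a median of 10 UMIs per cell and at most 56, against a median of 1 in the 75. None of the 10 was called a doublet or had 20 other-lineage UMIs, and their median depth was 3707.5 UMIs against 3415 in the 75. A Cd3 UMI was in 3 of the 10 and 8 of the 75, Cd3g was at 76.4 against 6.57 CPM on 3 and 2 UMIs, and Trbc1 was in all 10 cells at 560 against 351 CPM. The part of T cell transcripts in the division was not tested.

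**Figure D5:**
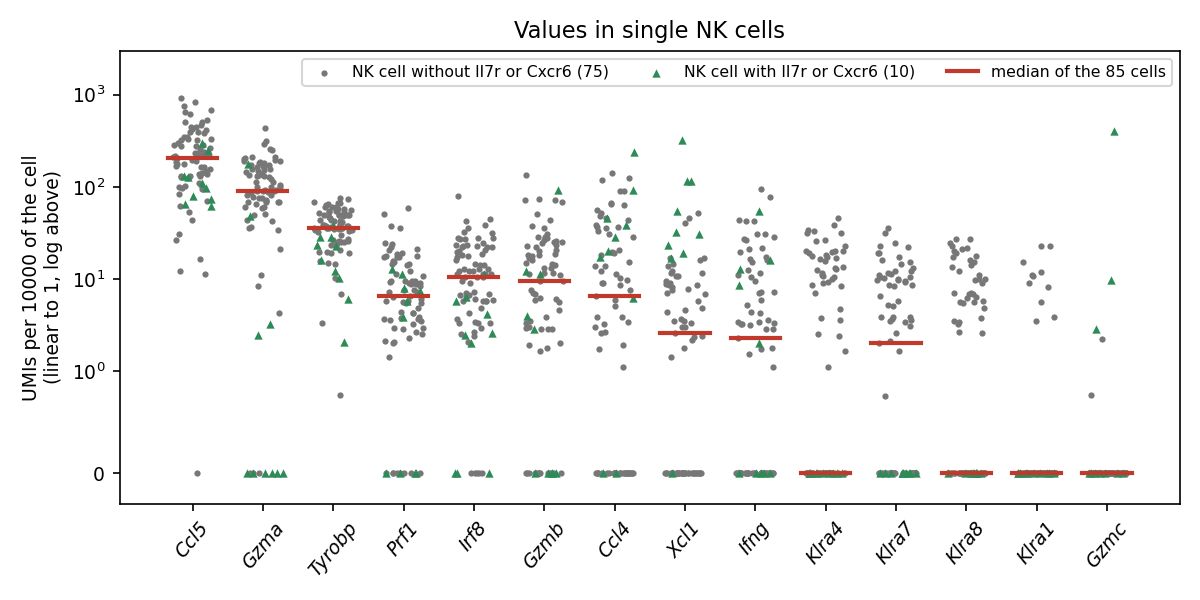
UMIs per 10000 of the cell for 14 genes in each of the 85 NK cells (y axis, linear to 1 and log above); grey points are the 75 cells without Il7r and Cxcr6, green triangles the 10 cells with either, and red bars the median of all 85. Ccl5 and Tyrobp fill almost all cells, Klra4, Klra7, Klra8 and Klra1 are seen in part of the grey points and in no triangle, and Gzmc is high in 1 cell.

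Summed UMIs of mitotic genes were mostly lower in NK cells than in T cells. Of 16 compared G2 and mitosis genes 13 were higher in T cells (81.25%, against 14.2% of all genes) and none in NK cells (median -2.32). Among the 13, Birc5, Cenpe, Cenpf, Aurkb and Kif11 had 1 UMI in NK cells and Mki67 and Ccna2 had 2. Such genes had enough UMIs only through the T class, so their side was fixed. The count is therefore a description only, and it was 8 when the interval had to leave out 1. Mki67 was at 2 against 65 UMIs (7.93-fold, 2.11 to 66.9) and Birc5 at 1 against 102 (24.9-fold, 4.37 to 993). The S phase list gave 3 of 20 on the T side, a share near the 14.2% of all genes, and none on the NK side (median -0.44), with Rrm2 6.67-fold higher in T cells (3.00 to 18.4). After thinning, at least 2 UMIs over both lists were in 85.9% of NK cells (76.6 to 92.5) and 79.7% of T cells (74.9 to 83.9), a share that Stmn1 and Hmgb2, present in resting lymphocytes too, and S phase genes such as Slbp fill. Without thinning, 96.5% of NK cells reached it.

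A share of that size is no count of dividing cells. With the G2 and mitosis list alone, and without Stmn1 and Hmgb2, a choice made after seeing the data, 3 of 85 NK cells (3.53%, 0.734 to 9.97) and 25 of 325 T cells (7.69%, 5.04 to 11.1) had at least 2 UMIs. These intervals overlap, and the share was 4.66% of cells with Csf1r and 2.36% of cells with Pdgfra. No NK cell and 8 T cells had at least 10 UMIs of that list. At least 10 UMIs over both full lists were in 4 NK cells (4.71%, 1.30 to 11.6) and 21 T cells (6.46%, 4.04 to 9.71), intervals that overlap. In T cells with NK receptors Mki67 was at 65.6 CPM and Top2a, which untangles replicated DNA, at 191 CPM, against 5.82 and 20.4 CPM in NK cells.

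Interferon-response genes were on the T side in 8 of 16 cases, or 50% against 14.2% of all genes, and in none on the NK side (median -0.89). Ifi27l2a was at 355 against 965 CPM (a ratio of NK to T cells of 0.368, and 0.235 without the highest NK cell), whereas Isg15 was at 198 and 182 CPM. Immediate early and stress genes, which tissue digestion can induce, had 1 of 20 on each side (median -0.09), with Fos at 1356 against 1707 CPM. That 5% was below the shares of all genes, 5.75% on the NK side and 14.2% on the T side. MHC class I genes had 1 of 12 on the T side, or 8.33% against 14.2% of all genes (median -0.03). The ligands H2-K1 and H2-D1 were 1.45-fold (1.36 to 1.54) and 1.40-fold (1.32 to 1.48) higher in NK cells. Glycolysis and mTORC1 genes had 2 of 16 on the T side, or 12.5%, also below the share of all genes (median -0.07). The medians of the last 3 lists lay near that of all genes, -0.09.

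Transcripts of the peptide that the series concerns were scarce in the members; these genes were chosen for the study's subject. Nts had 1 UMI in the 85 NK cells, 33 UMIs in 3 of the T cells, and 927 UMIs in 90 of 346 cells with Cdh5, an endothelial cadherin. Its receptors Ntsr1 and Ntsr2 had 0 UMIs in NK cells, which allows up to 10.7 CPM by the interval, and 0 in T cells, and the sorting receptor Sort1 had 1 UMI in NK cells. CreERT2, a recombinase transcript listed in the matrix, had 0 UMIs in NK cells and 20 in cells with Cdh5.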

How the data were processed

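Raw UMI counts per gene and barcode were deposited as a filtered matrix of 56954 features and 9369 barcodes; per the submitters' processing notes STARsolo, Scanpy and mm10 were used, with roles and versions not given in the sources used here. Libraries were made with the 10x 3′ kit version 3.1, per the labels' protocols. Barcodes had 2567 to 42567 UMIs, with no barcode repeated. No filter on cells was added and doublets were kept in the main values; Scrublet (scanpy 1.11.5) called 357 barcodes (3.81%).

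UMIs were summed per class and divided by the class total (CPM), with 95% exact Poisson intervals, exact binomial intervals for ratios and Clopper-Pearson intervals for shares (scipy 1.17.1). They cover counting error only, since 1 pooled library has no replicate. Genes with at least 20 UMIs over both classes were compared, a ratio of at least 2 was counted, a class at 0 was set to 3 counts, and the 12 genes of the selection were left out of counts and medians. For shares every barcode was thinned to 2500 UMIs, which left none out. The procedure was tested on simulated data. Positions are from GENCODE M21 and promoters from RefSeq on GRCm38.p6; 37 of 48 genes looked for had a promoter entry, and Ccl5 and Tyrobp were among those without.

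Named genes were the markers and selection genes, in each list up to 3 per side with the largest ratio, over all genes the 10 per side with the largest ratio and at least 50 UMIs, and list genes whose role is described. The 24 functional and 16 marker lists and the members were chosen with earlier results of these data known. The hashtag library was not analysed here, and a few list genes are not reported here. Alternatives are given at the end.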

Additional observations from a re-analysis of the deposited data

How the results depend on the processing

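All 101 named genes with a ratio of at least 2 kept their direction in each of the 13 alternatives that gave a value, and 82 met the call rule in all of them. Without cells that had cell cycle UMIs Ifng and Zeb2 were at ratios of 1.08 and 1.09, and Gzmm, Ifngr2, Cd69, Slamf6 and Itgb7 were under 2-fold on the T side. Unc13d, Stxbp2, Entpd1 and Ccl7 were under 2-fold in at least 1 setting each. The count higher in NK cells was 456 and was 218 with at least 50 UMIs over both classes and 241 without cells that had at least 2 cell cycle UMIs. The count higher in T cells was 1128 and was 463 and 443 under the same settings, where fewer genes were tested and, in the second, 12 NK and 66 T cells were left. It was 552 when the ratio's interval also had to leave out 1, with 379 in NK cells. With barcodes of 20 or more other-lineage UMIs left out of both classes, added after seeing the data, 451 and 775 were counted, of which 318 and 603 were among those of the main comparison. The members with both Cd27 and Itgam were 11 and, after thinning, 7. The share with at least 2 cell cycle UMIs was 85.9% in NK cells and 79.7% in T cells; it was 60% in both with at least 3 UMIs, and 3.53% and 7.69% with the G2 and mitosis list without Stmn1 and Hmgb2, added after seeing the data. The T side of the G2 and mitosis list was 13 of 16, 8 when the interval had to leave out 1, and 3 of 7 after thinning. Among the 101 named genes no direction reversed, but of 24 lists 10 had a median that changed sign in at least 1 setting: chemokines, chemokine receptors, effector cytokines, adaptors, transcription factors, checkpoint, S phase, immediate early, MHC class I and glycolysis genes. No paired analysis was possible because the files analysed here do not assign barcodes to animals. With 85 cells, a gene at 0 in NK cells is limited to 10.7 CPM by its interval, and the ratios of genes with 1 to 3 UMIs have wide intervals.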
